A study of Homo sapiens with 8 samples.

Results

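The abundant structural and nuclear non-coding RNAs of EA.hy926 cells were examined as a set of 7 genes: RN7SL1, RN7SL2, RN7SK, RMRP, RPPH1, MALAT1 and NEAT1. The set was chosen by measured abundance: its genes were listed by name with earlier results of these data known, and for each the transcript row with the highest mean FPKM over the libraries was used. Of the 7 genes, 4 (RMRP, RPPH1, MALAT1 and NEAT1) were found, among 27945 named genes and 65572 transcript rows in all; RN7SL1, RN7SL2 and RN7SK were not analysed here. The levels and the shares of the library below are therefore descriptions without a test. The p-values come from the fit over all genes and are not independent evidence about the set.

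EA.hy926 is a hybrid line made by fusing human umbilical vein endothelial cells with a lung carcinoma line. RNA-seq of total, rRNA-depleted RNA was available from 2 libraries of control cells, 3 libraries of ΔE2 cells, which lack enhancer E2 of the endothelial super-enhancer SE12313, and 3 libraries of ΔSE12313-b cells, which lack a neighbouring constituent of the same super-enhancer that was inactive when tested in vitro. Deletions were made with Cas9 protein and guide RNAs in wild-type EA.hy926, the cells were diluted so that each clone grew from 1 cell, and the study's account of its proliferation assay describes its controls as cells given guide RNAs and kept beside the clones. A single growth medium is given for all cells. Growth as a clone and the deletion cannot be told apart in these groups, and nothing in the labels says that the 2 control libraries came from separate cultures, so that p-values measure the spread between these libraries only.

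The 4 RNAs are made by 2 different polymerases. RPPH1 is the RNA of RNase P, the ribonucleoprotein enzyme that trims the leader from precursor tRNAs, and RMRP is the RNA of the related RNase MRP, which cuts precursor rRNA; both are short, made by RNA polymerase III from promoters that lie upstream of the gene, and bind a largely common set of proteins. MALAT1 and NEAT1 are long RNA polymerase II transcripts of neighbouring genes that stay in the nucleus, where MALAT1 gathers in nuclear speckles and the long form of NEAT1 is the scaffold around which paraspeckles form. RNase P joins both pairs: it cuts the 3′ ends of MALAT1 and of long NEAT1, which end in a triple helix instead of a poly(A) tail, and releases from MALAT1 a tRNA-like RNA named mascRNA.

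In hg19, RMRP was the row at chr9:35657748-35658015 on the minus strand (267 bases by the table's length) and RPPH1 the row at chr14:20811230-20811570 on the minus strand (340 bases). MALAT1 lay at chr11:65265209-65273983 on the plus strand, and its kept row, with 1 of 3 exon structures, had 8295 bases. NEAT1 lay on the same strand, 52200 bp before MALAT1: its short row, kept here, ran from 65190269 to 65194003 (3734 bases) and its long row from the same start to 65213009 (22740 bases). All rows were annotated as non-coding RNA.

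The promoters of the 2 RNA polymerase III genes are shown because the genes share this arrangement and yet, as described below, did not have the same levels across the groups. They cover 250 bases before and 50 bases from the annotated start, read 5′ to 3′ on the gene's strand from the GRCh37 genome (chr9:35657966-35658265 and chr14:20811521-20811820). Capitals mark ATTTGCAT, the octamer, and TATAA, searched on both strands.
RMRP promoter: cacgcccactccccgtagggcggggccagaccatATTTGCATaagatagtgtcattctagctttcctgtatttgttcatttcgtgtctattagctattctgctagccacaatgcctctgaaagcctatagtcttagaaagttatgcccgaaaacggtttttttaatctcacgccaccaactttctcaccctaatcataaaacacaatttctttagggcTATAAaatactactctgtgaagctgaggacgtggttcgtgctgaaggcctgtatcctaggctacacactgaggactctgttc
RPPH1 promoter: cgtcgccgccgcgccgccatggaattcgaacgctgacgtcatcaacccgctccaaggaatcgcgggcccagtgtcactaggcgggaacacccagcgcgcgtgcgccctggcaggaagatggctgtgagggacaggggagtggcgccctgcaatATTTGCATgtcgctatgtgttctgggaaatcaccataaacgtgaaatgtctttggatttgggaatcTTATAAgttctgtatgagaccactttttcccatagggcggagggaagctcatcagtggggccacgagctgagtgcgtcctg
The octamer began 216 bases before the RMRP start and 97 bases before the RPPH1 start, and TATAA began 32 and 30 bases before it; in RPPH1 the letters on the opposite strand overlapped those on the gene's strand. Of 35116 RefSeq promoter windows of the same length (GRCh38.p14), 1.77% held the octamer, 20.4% held TATAA and 0.575% held both.

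The 3′ ends of MALAT1 and long NEAT1 are shown because RNase P acts there and because they are alike where the transcripts otherwise are not. The MALAT1 window (chr11:65273468-65273645, plus strand) stops at the end of the mascRNA row, and the NEAT1 window (chr11:65212832-65213009, plus strand) at the end of the long row. Capitals mark every run of at least 9 bases that both windows hold.
MALAT1 end: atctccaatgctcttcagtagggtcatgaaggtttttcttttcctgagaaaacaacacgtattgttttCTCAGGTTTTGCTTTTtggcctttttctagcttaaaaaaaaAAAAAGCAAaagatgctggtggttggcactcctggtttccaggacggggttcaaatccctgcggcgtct
NEAT1 long end: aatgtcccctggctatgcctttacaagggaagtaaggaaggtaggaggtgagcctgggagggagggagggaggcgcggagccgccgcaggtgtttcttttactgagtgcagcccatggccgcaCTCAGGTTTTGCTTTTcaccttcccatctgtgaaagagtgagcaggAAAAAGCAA
mascRNA row: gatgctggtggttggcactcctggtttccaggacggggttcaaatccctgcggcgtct
The windows, of 178 bases each, shared 2 such runs: a U-rich one of 16 bases (written here with T) and an A-rich one of 9 bases. They hold some, not all, of the letters of the triple helix and of the stretch before the cut. In MALAT1 the 58 bases of the mascRNA row came just after the A-rich run, whereas the NEAT1 row stopped with it.

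RMRP and RPPH1 were among the 3 highest rows of all genes in every library, and they did not change alike. FPKM (fragments per kilobase of the row, scaled to the reads of the library) divides by length, so a short row needs fewer reads for the same level. By reads, RPPH1 held rank 4 and RMRP rank 5 in both controls. How far levels on such short rows can be compared with those on long rows was not tested. RPPH1 was measured at 18015 and 17583 FPKM in control, at 13620, 13124 and 13547 in ΔE2, and at 13597, 13482 and 13423 in ΔSE12313-b. All 6 clones lay below both controls, and the clones of the 2 deletions overlapped. The group means were 17799 ± 306 (SD, n = 2), 13430 ± 268 (n = 3) and 13500 ± 88.6 FPKM (n = 3). On the log2(FPKM + 0.1) scale the difference was -0.41 ± 0.12 (SE) in ΔE2 (limma adjusted p = 0.0237) and -0.40 ± 0.12 in ΔSE12313-b (adjusted p = 0.0230), a fold of 1.32 in each, under the 2-fold required for a call. The limma adjusted p is close to its threshold. Without any 1 ΔE2 clone it was above 0.05 in ΔE2 (0.0634 to 0.0808). In ΔSE12313-b it was 0.0736 without clone 1 of that deletion, and 0.00879 and 0.00760 without clones 2 and 3. Without ΔE2 clones 1, 2 and 3 the limma adjusted p in ΔSE12313-b was 0.0472, 0.0517 and 0.0551. In a fit of only the groups compared it was 0.00675 in ΔE2 and 0.248 in ΔSE12313-b. With any 1 library left out the difference was -0.42 to -0.39 in ΔE2 and -0.42 to -0.38 in ΔSE12313-b. Between the deletions the difference was -0.01, with a 95% interval from -0.26 to 0.25 (adjusted p = 0.972).

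RMRP was measured at 16628 and 15747 FPKM in control, at 15707, 15348 and 15740 in ΔE2, and at 11694, 9737 and 12177 in ΔSE12313-b. The 3 ΔE2 clones lay just below the lower control, and the 3 ΔSE12313-b clones well below every other library. Means were 16187 ± 623, 15599 ± 218 and 11203 ± 1292 FPKM (SD, n = 2, 3 and 3). The log2 difference from control was -0.05 ± 0.15 (SE) in ΔE2 (limma adjusted p = 0.776) and -0.54 ± 0.15 in ΔSE12313-b (adjusted p = 0.0135), and ΔE2 exceeded ΔSE12313-b by 0.48 (95% interval 0.18 to 0.79, adjusted p = 0.0296), a 1.40-fold difference. Without any 1 ΔE2 clone, or without ΔSE12313-b clone 1, that adjusted p was above 0.05 (0.0748 at the lowest). In a fit of only the groups compared, the limma adjusted p was 0.110 between the deletions and 0.142 for ΔSE12313-b against control. The ratio of RMRP to RPPH1, which scaling by a library total leaves as it is, was 0.923 and 0.896 in control, 1.15, 1.17 and 1.16 in ΔE2, and 0.860, 0.722 and 0.907 in ΔSE12313-b. The ΔE2 clones were above both controls, and the range of the ΔSE12313-b clones overlapped that of the controls.

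Quantile normalization, which gives every library the same value at each rank, turned the direction of some of these differences, since RN7SL3, RPPH1 and RMRP took ranks 1 to 3 in every library. RMRP was then 0.19 higher in ΔE2 (log2, limma adjusted p = 0.0329) and level with control in ΔSE12313-b, and RPPH1 was 0.19 lower in ΔE2 (adjusted p = 0.146) and 0.20 higher in ΔSE12313-b (adjusted p = 0.136). RN7SL3, a further gene of the signal recognition particle RNA and no member of the set, had the highest row of the table in both controls, at 25793 and 24898 FPKM, and lay at 20329, 19072 and 16798 in ΔE2 and at 13215, 12026 and 17226 in ΔSE12313-b. All 6 clones were below the controls, with a log2 difference of -0.44 in ΔE2 (adjusted p = 0.0829) and -0.86 in ΔSE12313-b (adjusted p = 0.00529). Near-identical copies of this RNA share reads, so its level is uncertain.

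**Figure D1:**
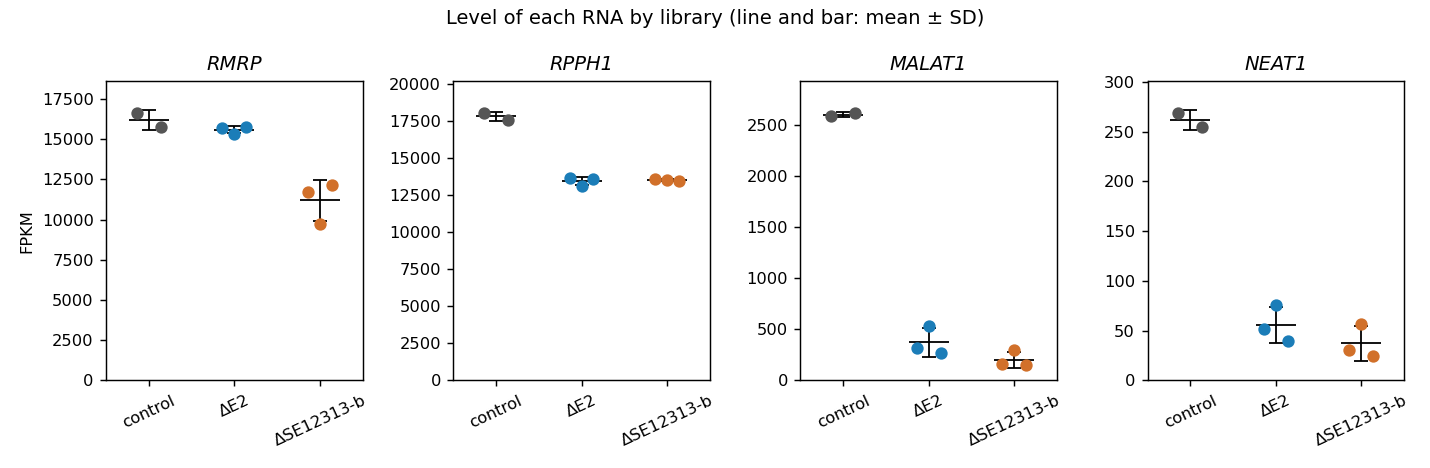
FPKM of RMRP, RPPH1, MALAT1 and NEAT1 in each library (points; vertical axes start at 0 and differ between panels), with the group mean and SD as a line and bars, for 2 control, 3 ΔE2 and 3 ΔSE12313-b libraries. RPPH1 was lower in all 6 clones, RMRP was lowest in the 3 ΔSE12313-b clones (quantile normalization turned the direction of RPPH1 in ΔSE12313-b and of RMRP in ΔE2, and left RMRP level with control in ΔSE12313-b), and MALAT1 fell from about 2603 FPKM in control to 372 and 201 in the deletions.

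MALAT1 and NEAT1 fell far more than the short RNAs, in every clone of both deletions. MALAT1 was measured at 2588 and 2619 FPKM in control, at 317, 532 and 266 in ΔE2, and at 156, 294 and 152 in ΔSE12313-b. No clone came near the controls: the level was 4.90 to 9.78 times lower than the control mean in ΔE2 and 8.87 to 17.1 times lower in ΔSE12313-b. MALAT1 was the row with the most reads of all genes in both controls, 272527 and 262124, and held rank 4 to 11 by reads in ΔE2 and rank 9 to 33 in ΔSE12313-b.

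The log2 fold change of MALAT1 was -2.87 ± 0.35 (SE; limma adjusted p = 0.000323) in ΔE2 and -3.77 ± 0.35 (adjusted p = 6.34e-05) in ΔSE12313-b. NEAT1, by its short row, was at 269 and 255 FPKM in control, at 51.2, 75.4 and 40.005 in ΔE2, and at 30.6, 56.9 and 24.2 in ΔSE12313-b, again with no overlap between clones and controls. Its log2 fold change was -2.28 ± 0.37 (adjusted p = 0.00127) in ΔE2 and -2.91 ± 0.37 (adjusted p = 0.000301) in ΔSE12313-b. A gene was called when its adjusted p was below 0.05 and it changed 2-fold or more. By this rule 2 of the 4 RNAs, MALAT1 and NEAT1, were called lower in ΔE2, where 8.36% of the 13789 genes tested were called lower, and the same 2 in ΔSE12313-b, where 7.83% were. Both comparisons use the same 2 control libraries.

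MALAT1 and NEAT1 also varied more between clones than the short RNAs. The SD of MALAT1 was 37.9% of the mean in ΔE2 and 40.2% in ΔSE12313-b, against 0.839% in control, and that of NEAT1 was 32.5% and 46.5% against 3.72%. For RPPH1 it was 1.996% and 0.656% against 1.72%, and for RMRP 1.39% and 11.5% against 3.85%. Within each deletion both long RNAs had the same order of clones: the clone numbered 2 was highest, the clone numbered 1 next and the clone numbered 3 lowest. The numbers of the 2 deletions name different clones, and the labels do not say whether same-numbered libraries were prepared together.

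Between the deletions, limma called 0 of the 4 RNAs, where 4.23% of all genes tested were called in either direction; 2 of the 4, RMRP and MALAT1, had an unadjusted p under 0.05, and voom on the recovered reads also called 0. MALAT1 was higher in ΔE2 than in ΔSE12313-b by 0.90 on the log2 scale (95% interval 0.17 to 1.62, adjusted p = 0.0712) and NEAT1 by 0.62 (interval -0.14 to 1.38, adjusted p = 0.202). The ranges of the clones overlapped for both RNAs. Without ΔSE12313-b clone 2, in which MALAT1 was highest for that deletion, the MALAT1 difference was 1.21 (limma adjusted p = 0.0211) and would have been called. Its adjusted p was also below 0.05 with voom (0.0387), where the change stayed under 2-fold.

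**Figure D2:**
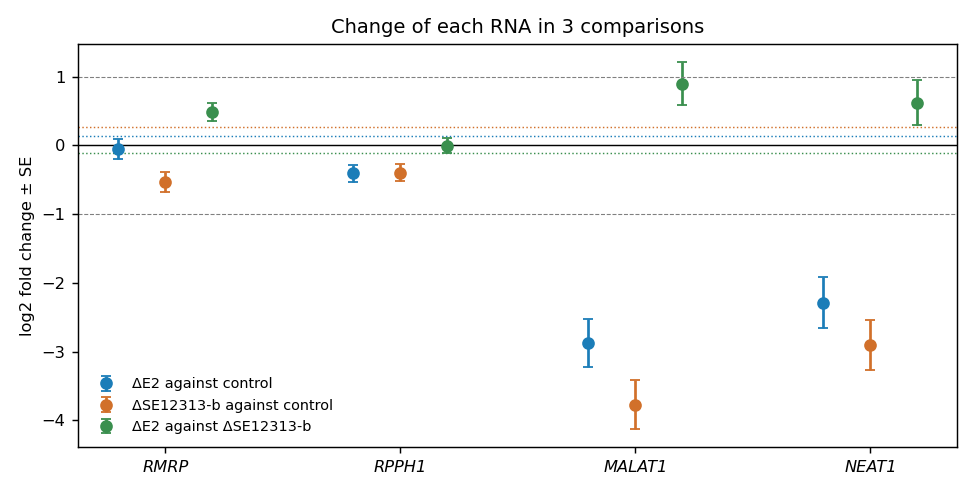
Log2 fold change and SE of each RNA from the limma fit over all genes (points and bars) for each deletion relative to control and for the 2 deletions relative to each other; dotted lines are the median of all genes in each comparison and dashed lines a 2-fold change. MALAT1 and NEAT1 lay between -2.28 and -3.77 against control, while RMRP and RPPH1 stayed within 2-fold.

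The share of NEAT1 reads in the stretch that only its long form holds was higher in ΔE2 than in control by its values, at a p this design cannot bring below 0.1. Long-form reads in the shared part are not counted in it. The short and the long form share their first part, and the long row adds the stretch from the end of the short row to position 65213009, so that reads of the long row beyond those of the short row come from the long form only. This stretch held 5684 of 18422 NEAT1 reads (30.9%, 95% Wilson interval 30.2 to 31.5) and 5513 of 16999 (32.4%, 31.7 to 33.1) in control. The share was 46.4%, 52.6% and 47.1% in ΔE2, and 41.8%, 43.7% and 31.2% in ΔSE12313-b. All ΔE2 clones were thus above both controls, whereas ΔSE12313-b clone 3 lay within the control range; the intervals cover counting error only.

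The mean share was higher by 17.1 percentage points in ΔE2 than in control and by 7.27 points in ΔSE12313-b than in control (exact permutation tests, two-sided, p = 0.1 and p = 0.3). With 2 against 3 libraries no p below 0.1 can be reached. Between ΔE2 and ΔSE12313-b the difference was 9.79 points (exact permutation p = 0.1, also the smallest this design can give). As a level per length, the long-only stretch was at 23.6 and 24.0 FPKM in control, at 8.71, 16.4 and 6.99 in ΔE2, and at 4.33, 8.66 and 2.16 in ΔSE12313-b, so that it was lower in all clones, and its density was 9.10% of that of the shared part in control, 18.8% in ΔE2 and 12.8% in ΔSE12313-b.

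**Figure D3:**
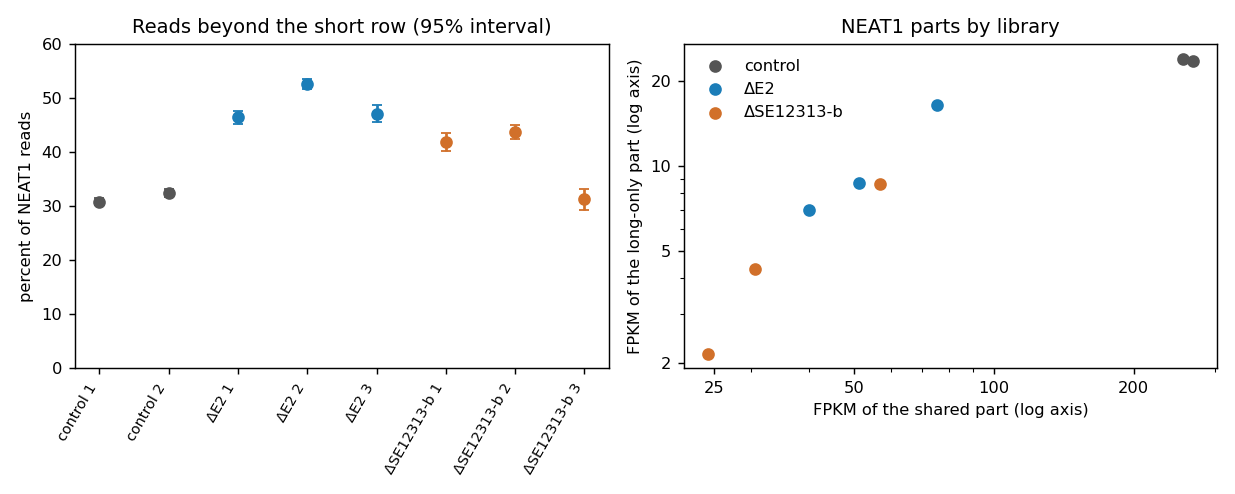
Left, the percent of NEAT1 reads in the stretch held by the long row only, by library, with 95% Wilson intervals; right, FPKM of that stretch against FPKM of the part both forms share, on log axes, 1 point per library. The 3 ΔE2 clones (46.4% to 52.6%) lay above the controls (30.9% and 32.4%), and both parts of the gene were lower in all 6 clones.

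Rows that overlap these genes were also measured, each with a limit given here. MASCRNA, the row of the tRNA-like product printed above, had 4 and 2 reads in control and from 0 to 4 in the clones, which is too few to compare. TALAM1, the antisense transcript of MALAT1, held 66 and 72 reads in control, against 272527 and 262124 for MALAT1 on the other strand, so the deposited values keep the strands apart. TALAM1 was at 0.640 and 0.735 FPKM in control and at 0.009 to 0.075 in the clones, and was called lower in both deletions. The log2 fold change was -2.58 in ΔE2 (limma adjusted p = 0.00406) and -2.37 in ΔSE12313-b (adjusted p = 0.00527). Only the 2 control values reached the 0.5 FPKM that a gene needed in at least 2 libraries to be tested. A gene admitted in this way can only come out lower in the clones, so the direction of these calls is not evidence. Whether MALAT1 reads placed on the wrong strand are among the TALAM1 reads was not tested. TALAM1 amounted to 0.000264 of the MALAT1 level in control, 8.36e-05 in ΔE2 and 0.000269 in ΔSE12313-b. MIR612, a microRNA gene inside the long-only stretch of NEAT1, shares its reads.

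A gene beside NEAT1 was not low with it. FRMD8, 9274 bp before NEAT1, was at 8.55 and 7.13 FPKM in control and at 10.4 to 12.9 in ΔE2 and 8.98 to 12.2 in ΔSE12313-b. It was not called in either deletion. Its log2 differences of 0.59 in ΔE2 (limma adjusted p = 0.0155) and 0.36 in ΔSE12313-b (adjusted p = 0.0899) were below 2-fold. The next gene on the far side of RPPH1, CCNB1IP1, at 59.3 and 55.6 FPKM in control and 19.2 to 24.7 in the clones, was called lower in both deletions (log2 fold change -1.44 and -1.35). PARP2, a poly(ADP-ribose) polymerase of DNA repair whose start lies 203 bp from that of RPPH1 on the opposite strand, within the promoter printed above, was at 17.6 and 18.0 FPKM in control and at 22.05 to 28.2 in the clones, where RPPH1 was lower; its differences of 0.39 (adjusted p = 0.0146) and 0.46 (adjusted p = 0.00596) were below 2-fold. CCDC107, 272 bp from RMRP on the opposite strand, was at 1.25 to 2.41 FPKM in all libraries, and SIT1, on its other side, was listed at 0 in all.

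The genes whose levels were most like those of each RNA over the 8 libraries were picked by Pearson's r of log2(FPKM + 0.1) among 12026 other genes with a mean of at least 1 FPKM; the libraries share their groups, so r is a description. For RMRP they were SNORD19B (r = 0.989), WASF1 (0.973) and SNORA73B (0.972), of which the first and last are small nucleolar RNAs. SNORA73B was at 925 and 791 FPKM in control, 975.5, 702 and 907 in ΔE2, and 392, 259 and 552 in ΔSE12313-b, so that its lowest values were also in that deletion. For RPPH1 they were THBD (0.994), which encodes thrombomodulin, GAS5 (0.993), a host gene of small nucleolar RNAs, and WASH2P (0.992). For MALAT1 they were CSAD (0.998), CDKN1A (0.995), which encodes the p21 inhibitor of cyclin-dependent kinases, and ATG16L2 (0.994); for NEAT1 they included MALAT1 itself (0.994) and CSAD (0.993).

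The 4 RNAs together held 10.7% and 10.4% of the summed FPKM in control, 7.78%, 7.70% and 7.63% in ΔE2, and 6.28%, 6.26% and 6.14% in ΔSE12313-b. Almost all of this was RPPH1 and RMRP: in control library 1 they held 5.16% and 4.76%, MALAT1 0.741% and NEAT1 0.0769%. Counted in reads, MALAT1 came first in control, since its row is long. The 4 RNAs held 3.30% and 3.29% of library reads in control, 1.16%, 1.33% and 1.117% in ΔE2, and 0.915%, 0.983% and 0.916% in ΔSE12313-b, and MALAT1 alone held 2.15% and 2.17% in control, 0.221% to 0.441% in ΔE2 and 0.126% to 0.244% in ΔSE12313-b. The drop in the share of reads was thus mostly MALAT1, and the drop in the share of FPKM was mostly RPPH1 in ΔE2, and RPPH1 and RMRP in ΔSE12313-b.

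**Figure D4:**
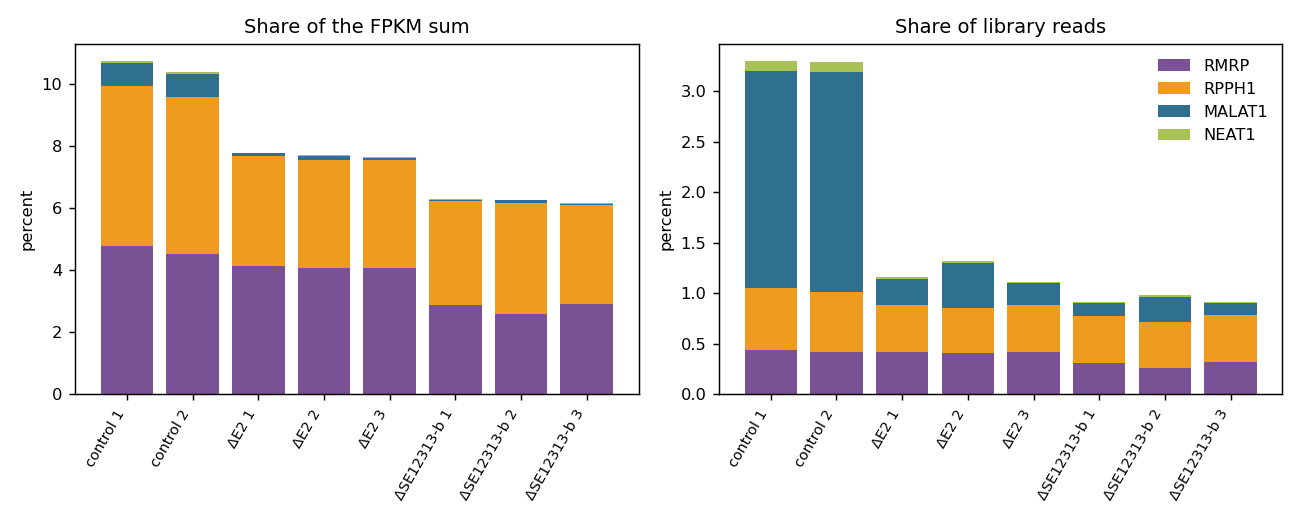
Percent of each library's summed FPKM (left, 1 row per gene) and of its reads (right) held by RMRP, RPPH1, MALAT1 and NEAT1, as stacked bars from 0 for the 8 libraries. The total fell from 10.7% and 10.4% to between 6.14% and 7.78% of FPKM, and from 3.30% and 3.29% to between 0.915% and 1.33% of reads.

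These shares bear on the scale on which all other genes are read in the deposited FPKM. For its own calls the study scaled library sizes by another method, TMM (trimmed mean of M-values) in edgeR. As deposited, the median log2 fold change of the 13789 genes tested was 0.14 in ΔE2 and 0.27 in ΔSE12313-b. Leaving the reads of the 4 RNAs out of the library totals lowered it only to 0.11 and 0.24. Dividing by the FPKM sum (TPM) gave 0.01 and 0.08, and dividing by that sum without the 4 RNAs gave -0.03 and 0.02. The share of library reads that fell on the gene rows kept was 64.4% ± 0.32 in control, 71.6% ± 1.65 in ΔE2 and 77.3% ± 1.79 in ΔSE12313-b (SD, n = 2, 3 and 3), a log2 ratio to control of 0.15 and 0.26, and with libraries scaled to those reads, a choice made after seeing the data, the median was -0.00499 in ΔE2 and 0.02 in ΔSE12313-b.

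The split of the calls moved with it. In ΔE2, 1544 genes were called higher and 1153 lower as deposited, against 1151 and 1506 with TPM without the 4 RNAs, and in ΔSE12313-b 2032 and 1080 against 1269 and 1499. Most of this move came with TPM itself: with the 4 RNAs kept it gave 1240 and 1386 in ΔE2, and 1399 and 1372 in ΔSE12313-b. Leaving only their reads out of the library totals gave 1468 and 1210, and 1897 and 1117, still mostly higher. Relative to the median gene, RPPH1 stood at a log2 difference of -0.55 in ΔE2 and -0.67 in ΔSE12313-b, RMRP at -0.19 and -0.81, MALAT1 at -3.01 and -4.04, and NEAT1 at -2.43 and -3.18. In bulk RNA, less of an RNA per cell and fewer cells that make it cannot be told apart.

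**Figure D5:**
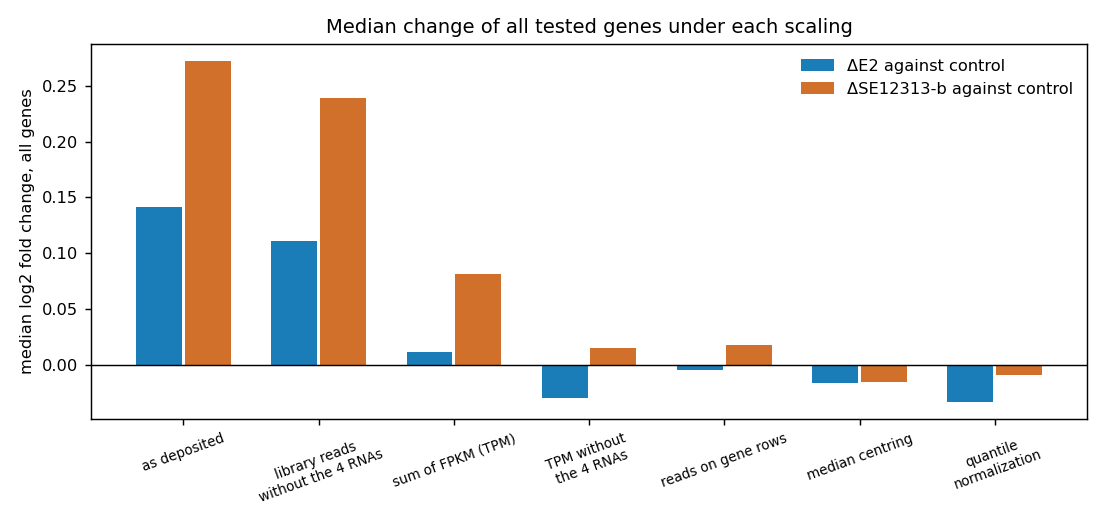
Median log2 fold change of all genes tested in ΔE2 and ΔSE12313-b against control (bars from 0) under the deposited scale and 6 other scalings of the libraries. Leaving out the reads of the 4 RNAs moved the median from 0.14 to 0.11 and from 0.27 to 0.24, while scaling to the reads on gene rows brought it to within 0.02 of 0.

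Of all genes tested, 11.2% were called higher and 8.36% lower in ΔE2, and 14.7% higher and 7.83% lower in ΔSE12313-b; the counts of the gene lists below, each of few genes, stand beside these shares and were not tested against them. Of 11 proteins of RNase P and RNase MRP, 2 rose in ΔE2 and 4 rose in ΔSE12313-b, and 0 fell in either by limma; the median log2 fold change was 0.69 and 0.87, beside 0.14 and 0.27 for all genes. POP1, the largest protein of both enzymes, was at 1.54 and 1.39 FPKM in control and at 5.83 to 8.92 in the clones, a log2 fold change of 2.30 in ΔE2 (adjusted p = 3.72e-05) and 2.24 in ΔSE12313-b (adjusted p = 3.22e-05). POP7 rose from 7.72 and 7.77 FPKM to between 16.2 and 28.1 (1.34 and 1.64). All lists were chosen with earlier results of these data known, and their medians stand beside that of all genes as a description.

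Of 14 paraspeckle proteins, the partners of NEAT1, 4 rose in ΔE2 and 5 in ΔSE12313-b (11.2% and 14.7% of all genes), with medians of 0.64 and 0.69. SFPQ, an RNA-binding protein of the paraspeckle core, rose from 38.2 and 38.1 FPKM to between 84.4 and 106 (log2 fold change 1.22 and 1.41). PSPC1, another core protein, rose from 8.21 and 8.87 FPKM to between 16.3 and 26.5 (1.00 and 1.29). Both were higher in each of the 6 clones, where NEAT1 was lower.

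Of 15 nuclear speckle proteins, 4 rose and 1 fell in ΔE2 (11.2% and 8.36% of all genes), and 4 rose and 0 fell in ΔSE12313-b by limma (14.7% and 7.83%), with medians of 0.43 and 0.49. The splicing factor SRSF3 rose from 24.0 and 23.0 FPKM to between 76.2 and 81.4 (1.73 and 1.72), and SRSF2 from 33.6 and 33.9 to between 81.1 and 101 (1.36 and 1.52). SRRM2, a scaffold protein of the speckle, was at 56.7 and 57.3 FPKM in control, fell to 24.3 to 30.2 in ΔE2 (-1.03, adjusted p = 0.000826) and was at 28.8 to 41.0 in ΔSE12313-b (-0.73, below 2-fold).

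Of 13 RNA polymerase III subunits, 2 rose in ΔE2 and 3 in ΔSE12313-b, beside 11.2% and 14.7% of all genes. POLR3K was at 9.91 and 9.01 FPKM in control, rose to 22.01 to 30.9 in ΔSE12313-b (1.41) and was at 14.3 to 16.9 in ΔE2 (0.74, below 2-fold). POLR3B rose in both, by 1.09 and 1.11. Of 19 initiation factors, including the SNAPC subunits that bind upstream promoters such as those printed above, 1 rose in ΔE2 (SNAPC1, log2 fold change 1.22, adjusted p = 0.0146, from 14.2 and 13.3 FPKM to between 21.5 and 41.9) and 0 were called in ΔSE12313-b by limma, where SNAPC1 was at 18.2 to 35.2 FPKM (0.84, adjusted p = 0.0556).

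ELAC2, the RNase Z that trims the other end of tRNAs and of mascRNA, was 1 of 4 factors of 3′ ends and rose in both deletions (1.08 and 1.01), from 9.33 and 9.90 FPKM to between 17.2 and 21.6. Partners of the RNAs not analysed here were also tested. Of 8 proteins of the signal recognition particle and its receptor, 1 rose in ΔSE12313-b (SRPRB, 1.41), and of 7 proteins of the 7SK particle and P-TEFb, 1 rose in ΔSE12313-b (HEXIM1, 1.02); 0 were called in ΔE2 in either list by limma, where SRPRB differed by 0.81 and HEXIM1 by 0.74.

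Of 32 other short structural RNAs listed, 18 had a row and 11 were tested, of which 4 rose and 1 fell in ΔE2 (11.2% and 8.36% of all genes) and 0 rose and 2 fell in ΔSE12313-b (14.7% and 7.83%). TERC, the RNA template of telomerase, was at 105 and 88.6 FPKM in control, fell to 39.6 to 50.6 in ΔSE12313-b (-1.05, limma adjusted p = 0.00257) and was at 48.5 to 75.2 in ΔE2 (-0.76, adjusted p = 0.0138, below 2-fold). SCARNA2 was at 558 and 556 FPKM in control and fell to 226 to 278 in ΔE2 (-1.20, adjusted p = 0.000383) and was at 271 to 368 in ΔSE12313-b (-0.88, adjusted p = 0.00144, below 2-fold). For both RNAs all 6 clones lay below the controls. VTRNA1-3, a vault RNA, fell in ΔSE12313-b (-1.84) from 4.53 and 2.86 FPKM to 0.715 to 1.45, and was at 1.69 to 4.70 in ΔE2 (-0.31, adjusted p = 0.585). RNU11 and RNU12, RNAs of the minor spliceosome, rose in ΔE2 (3.79 and 1.86) from very low levels, at most 0.618 and 1.60 FPKM in control, and differed by 2.36 and 0.85 in ΔSE12313-b (adjusted p = 0.0777 and 0.285). VTRNA1-3 and the 4 RNAs that rose in ΔE2 were at no more than 4.53 FPKM in control. On short rows such levels are few reads (MASCRNA had 4 at 5.53 FPKM), so these calls are weak. Of 15 listed rRNA genes, 11 had a row and all were listed at 0.

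Of 7 other long non-coding RNAs listed, 5 were tested and 1, MEG3, was called lower in each deletion (8.36% and 7.83% of all genes). MEG3 was at 75.8 and 79.0 FPKM in control, at 10.5 to 11.3 in ΔE2 and at 7.93 to 16.1 in ΔSE12313-b (log2 fold change -2.83 and -2.84), beside -2.87 and -3.77 for MALAT1. TUG1 was at 19.5 and 19.3 FPKM in control and between 16.5 and 20.3 in the clones. The median log2 fold change of the 5 was -0.40 in ΔE2 and -0.34 in ΔSE12313-b, beside 0.14 and 0.27 for all genes. Of the 5, 0 were above 0 in ΔE2 and 1 in ΔSE12313-b.

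Library depth, from reads recovered from the FPKM, was 12067557 to 19101151 reads per library, lowest in the controls. Of 7 endothelial markers 6 were tested; PECAM1 and ERG rose and VWF fell in both deletions, CLDN5 was listed at 0 in all libraries, and their summed FPKM was 215.8 in each control, 228 to 362 in ΔE2 and 249 to 339 in ΔSE12313-b. Of 5 epithelial markers, KRT7, KRT8 and KRT18 rose in both deletions, EPCAM was below 0.6 FPKM and CDH1 listed at 0, and the sum was 361 to 363, 1084 to 1210 and 811 to 1069 FPKM. The part of these shifts in the levels of the 4 RNAs was not tested.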

How the data were processed

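Total RNA was depleted of rRNA, made into directional libraries and sequenced single-end for 75 cycles. Per the study's methods and the submitters' processing notes, reads were trimmed with Trim Galore 0.4.4 (quality cutoff 30), mapped to hg19 with STAR 2.5.4b, which kept reads with up to 10 places, and counted with featureCounts. How the authors made the deposited FPKM table is not given in the sources used here; it has 65572 RefSeq transcript rows, of which 42 name no gene (0.0193% of the FPKM) and were left out. In it, FPKM times length gave whole reads (within 0.1) for 100.0% of 312412 values checked.

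For each symbol the row with the highest mean was kept. limma 3.58.1 (R 4.3.3, with trend) was fitted to log2(FPKM + 0.1) of the 13789 genes with at least 0.5 FPKM in at least 2 libraries, the 3 groups in 1 model, with Benjamini-Hochberg adjustment over all genes. Fold changes of low genes are understated on this scale. A call needed an adjusted p under 0.05 and 2-fold. The script was tested on simulated data. NEAT1 shares were compared by exact permutation tests. The RNAs and gene lists were chosen with earlier results of these data known. From each list, up to 2 genes per direction and deletion with the largest change among those called are named, with the rows next to each RNA and its 3 most similar genes, except some that are not reported here; RN7SL3, TUG1, KRT18 and the markers near 0 fall outside this rule and were chosen after their values were seen. The start column of the table was found to be 1-based against GENCODE. Alternatives were other pseudocounts, filters, scalings, variance models, call rules and tests, and each library left out in turn.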

Additional observations from a re-analysis of the deposited data

Results flagged for a closer look

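RMRP differed between the deletions themselves: it was 0.48 higher on the log2 scale in ΔE2 than in ΔSE12313-b (limma adjusted p = 0.0296), with all 3 ΔE2 clones (15348 to 15740 FPKM) above all 3 ΔSE12313-b clones (9737 to 12177 FPKM). The difference had the same direction under all 25 alternatives, from 0.19 under quantile normalization to 0.61 under median centring. Many of these could not change it: other filters, other call rules, a fit without the trend, the replicate block and leaving out a control keep it at 0.48. For those the shared direction was fixed in advance. The limma adjusted p ranged from 0.00226 to 0.572, above 0.05 under some alternatives, such as leaving out any 1 ΔE2 clone. The groups of 2 and 3 libraries were too small to test single libraries as outliers.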

How the results depend on the processing

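Of 300 log2 fold changes of the 4 RNAs recomputed under 25 alternatives each, 299 kept their call or their lack of one. MALAT1 between the deletions became called without ΔSE12313-b clone 2 (1.21). For RMRP and RPPH1, never called, the count shows only that no call appeared. Their sign turned under some alternatives (5 for RPPH1 between the deletions). Other call rules, or a fit without the trend, leave the fold change as it is. MALAT1 and NEAT1 against control were called under every alternative run, between -2.66 and -3.16 (MALAT1, ΔE2), -3.60 and -4.08 (MALAT1, ΔSE12313-b), -2.07 and -2.53 (NEAT1, ΔE2) and -2.65 and -3.26 (NEAT1, ΔSE12313-b) with 1 library left out. Where that leaves 1 control, it is assumed to vary like the other groups. The numbers of genes called were 2697, 3112 and 583 (ΔE2, then ΔSE12313-b, each relative to control, then between the deletions), and 1718, 2004 and 240 with a pseudocount of 1, 7360, 8670 and 1648 over every transcript row, where more rows are tested, and 5053, 5802 and 1631 at 1.5-fold; at an adjusted p under 0.01 the last was 383. Leaving out 1 library gave 2230 to 2871, 2620 to 3175 and 474 to 663.

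The median log2 fold change of all genes, in the same order, was 0.0116, 0.0809 and -0.0478 with TPM, -0.0303, 0.0150 and -0.0259 with TPM without the 4 RNAs, -0.0168, -0.0156 and 0.0193 with median centring, -0.0334, -0.00916 and -9.93e-05 with quantile normalization, and -0.00499, 0.0179 and -0.00327 with reads on gene rows. With library reads without the 4 RNAs it was 0.111 and 0.239 in the first 2. The cause was not tested. The share of FPKM held by the 4 RNAs was 5.20%, 3.40% and 2.64% (control, ΔE2, ΔSE12313-b) over every transcript row, and 3.29%, 1.20% and 0.938% in recovered reads. Leaving out 1 library, it was 10.4% to 10.7%, 7.66% to 7.74% and 6.20% to 6.27%, and the difference in the long-only NEAT1 share was 15.1 to 18.2 points (ΔE2 against control), 4.90 to 11.1 (ΔSE12313-b against control) and 5.95 to 12.2 (between the deletions).

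With the replicate number as a replicate block, 2530, 2962 and 523 genes were called, and RPPH1 had an adjusted p of 0.0604 in ΔE2 and 0.0586 in ΔSE12313-b, while that of RMRP between the deletions was 0.0551 and that of MALAT1 0.0234, at under 2-fold. Over all genes tested the numbers did not pair the clones: deviations of same-numbered clones correlated at 0.107, -0.0804 and -0.0730. With FPKM above 0 in at least 2 libraries as the filter, the adjusted p of RPPH1 was 0.612 in both deletions.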
